A study of Saccharomyces cerevisiae with 4 samples.

Results

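The 9 genes described here encode the pyruvate decarboxylases and the classical alcohol dehydrogenases of budding yeast, Saccharomyces cerevisiae. They are PDC1 (YLR044C), PDC5 (YLR134W), PDC6 (YGR087C), ADH1 (YOL086C), ADH2 (YMR303C), ADH3 (YMR083W), ADH4 (YGL256W), ADH5 (YBR145W) and SFA1 (YDL168W). They were chosen by name, as the standard symbols of both enzyme families, and each was found on the array by its systematic name. The 9 genes were among 6256 genes on the array, and 8 of the 9 were among the 5343 genes bright enough to be tested. ADH4 was the exception.

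Pyruvate decarboxylase turns the pyruvate from glycolysis into acetaldehyde and carbon dioxide with thiamine diphosphate as cofactor, and alcohol dehydrogenase reduces acetaldehyde to ethanol, which renews the NAD+ that glycolysis needs. When sugar runs out, yeast oxidises ethanol back to acetaldehyde and on to acetate, and the isoenzyme for this direction, Adh2, is known to be repressed by glucose. Glycerol enters metabolism below the sugars and is respired rather than fermented in laboratory strains, so the fermentative branch carries little of its carbon.

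The series compared a parental strain, labelled BY4741, with a mutant carrying a DampERG12 allele, which lowers expression of the gene for mevalonate kinase (MVK), an early enzyme of sterol and isoprenoid synthesis. The mutant kept 10% of the parental MVK activity, per the labels. BY4741 is a haploid laboratory strain with several auxotrophies, and nothing in the labels says how many mutant clones were used. Both strains were grown in synthetic YNB medium with glucose, then moved to fresh YNB with 20 g/L of glucose or of glycerol, at 30 °C. The 4 RNAs were therefore parental glucose, parental glycerol, mutant glucose and mutant glycerol. The descriptions differ on the last step. One text has cells kept for 1 h on glucose or glycerol, another has them grown there until the optical density rose from 0.1 to 0.5, and the treatment text has them held for 1 h in acid YPD of pH 2.5. Which of these held for the RNA measured cannot be told from the files, and it applies to all 4 RNAs.

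Each of 4 comparisons was hybridised on 2 arrays, called biological duplicates in the design text. For 2 of them glycerol RNA was set over glucose RNA of 1 strain, the glycerol response of that strain. For the other 2, mutant RNA was set over parental RNA from cells on the same carbon source. Each RNA therefore entered 2 comparisons and 4 channels, so the comparisons share RNA conditions and are not independent of each other. The first RNA of each pair was labelled with Cy5 and the second with Cy3 on every array, without a dye swap, so that a dye effect of a probe is part of each ratio. The arrays shared 1 slide, on which a comparison filled 1 column, so column and comparison cannot be told apart, and slide rows 1 and 2 each held 1 array of every comparison. Each channel had 4917 to 5499 genes well above background, and 0 spots of the 9 genes were saturated. Precision is limited by the number of arrays. The targeted gene, ERG12, gave little signal, and it cleared background in 5 of the 8 channels with parental RNA and 1 of the 8 with mutant RNA. Its signal there does not settle the strain labels, because where its probe lies in the gene was not examined.

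All ratios below are log2 Cy5/Cy3, so that 1 is a 2-fold difference, and errors are standard errors of the limma fit over all 8 arrays unless called SD. Calls were made at an adjusted p (Benjamini-Hochberg, over the 5343 genes) under 0.05. Signs follow the dyes named in the labels and the scanner files. In the parental glycerol response they oppose the authors' deposited table, whose column for that comparison correlated with the scanner ratios at r = -0.964 across genes. The other 3 columns of that table ran the same way as the scanner ratios.

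On glycerol, the ethanol-oxidising isoenzyme gene ADH2 was 45.9-fold higher than on glucose in the parental strain. In the mutant the fitted mean was 20.1-fold, resting on a glucose channel too dim for an exact ratio. The fermentative isoenzyme gene ADH1 fell in both strains, by 0.86 in the parental strain and by 1.07 in the mutant. ADH5 fell by 2.22 in the parental strain and by 0.85 in the mutant. This difference between the strains passed its own test, but a second contrast of the same quantity did not (limma adjusted p = 0.0558). The call was also lost when some single arrays were left out. The mitochondrial isoenzyme gene ADH3 and SFA1 rose in both strains by smaller amounts, between 0.42 and 1.22. Among the decarboxylases, PDC1 fell in the parental strain, PDC6 rose in the mutant, and PDC5 passed the test in neither strain.

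In counts, 3 of the 8 tested genes were higher on glycerol in the parental strain, 3 were lower and 2 were not called. Over all genes tested, 62.0% were called in this comparison, 31.4% higher and 30.5% lower. In the mutant 4 were higher, 2 were lower and 2 were not called, against 46.6% of all genes called, 24.7% higher and 21.9% lower. The median log2 ratio of the 8 genes was 0.39 in the parental strain and 0.18 in the mutant, where all tested genes had medians of -0.01 and 0.02. The split depended on centring: 50.7% of called genes were higher in the parental strain, 37.8% with median centring and 9.86% with spike-in centring, and in the mutant the last changed 53.0% to 72.7%. With backgrounds this high, a call in either response was common, and the sizes of the changes tell more than the counts. In the plot of ratios on each array, ADH2 stands far above the other genes in both glycerol responses.

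**Figure D1:**
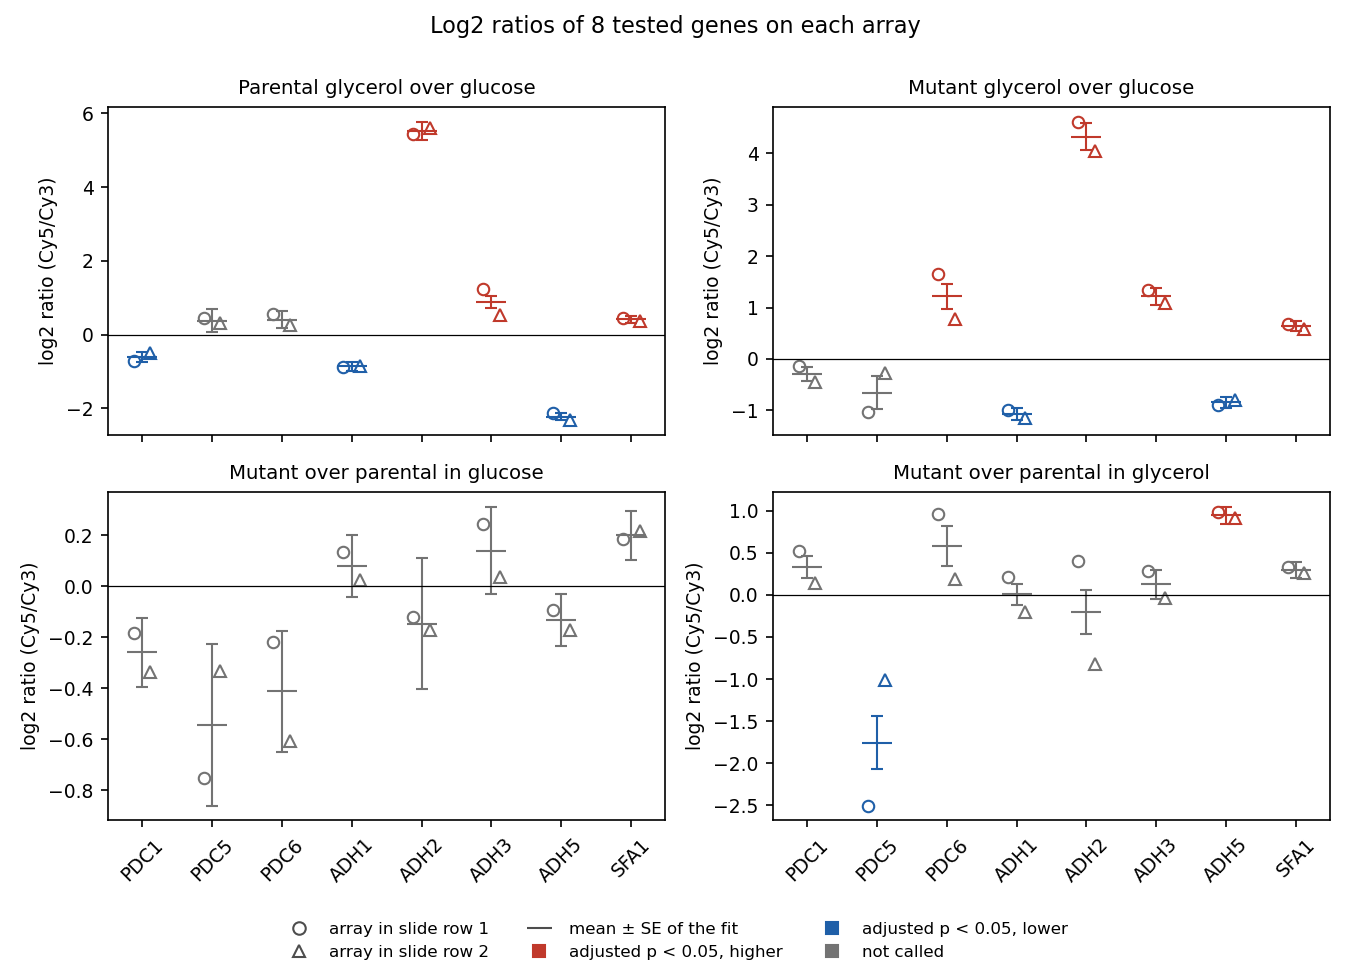
Log2 ratio of Cy5 over Cy3 for the 8 tested genes in the 4 comparisons, 1 panel each with its own vertical scale. Circles and triangles are single arrays from slide rows 1 and 2, the bar with caps is the mean ± SE of the fit, and colour marks genes called higher (red), lower (blue) or not called (grey). ADH2 lies above 4 in both glycerol responses, while ADH5 (higher) and PDC5 (lower) are the called genes between the strains in glycerol. The ADH2 ratio between the strains in glucose rests on dim channels and is not read.

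PDC1 encodes the main pyruvate decarboxylase of cells growing on glucose. In the parental strain its glycerol over glucose ratio was -0.71 on the row 1 array and -0.50 on the row 2 array, and in the mutant it was -0.13 and -0.45. Both strains were thus below 0 on both arrays, and the ranges of the strains did not overlap, by a narrow margin. The parental mean was -0.60 ± 0.14 (n = 2 arrays, limma adjusted p = 0.00504). The mutant mean was -0.29 ± 0.14 (n = 2 arrays, limma adjusted p = 0.117), with a 95% interval from -0.60 to 0.02. Without the row 1 array the parental value was -0.50 and its adjusted p rose to 0.0805. Its ratio depended on the centring of the arrays: with each array centred on its median in place of loess, the parental ratio was -1.30 and the mutant ratio, -0.59, passed the test (limma adjusted p = 0.0197).

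PDC5 encodes the second decarboxylase of glucose-grown cells, known to rise when PDC1 is deleted or thiamine is short. Its parental ratios were 0.44 and 0.31 in rows 1 and 2, and its mutant ratios were -1.04 and -0.28. Every parental array was above 0 and every mutant array below it. Neither mean passed the test, at 0.38 ± 0.32 (n = 2 arrays, limma adjusted p = 0.328) in the parental strain and -0.66 ± 0.32 (n = 2 arrays, limma adjusted p = 0.124) in the mutant.

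PDC6 encodes a minor decarboxylase poor in sulfur amino acids, known to be induced when sulfur is limiting. The parental ratios of PDC6 were 0.55 in row 1 and 0.26 in row 2, and the mutant ratios were 1.65 and 0.78. All 4 arrays were above 0, and the lower mutant array was above the higher parental one. The gene rose by 1.22 ± 0.24 in the mutant (n = 2 arrays, limma adjusted p = 0.00397), a 2.32-fold difference. In the parental strain the value was 0.41 ± 0.24 (n = 2 arrays, limma adjusted p = 0.169). The mutant call rested on the row 1 array, since without it the value was 0.78 and the adjusted p 0.0535. With the slide row as a block, the parental value also passed the test (limma adjusted p = 0.0329).

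ADH1 encodes the main ethanol-forming dehydrogenase. Its ratios were -0.87 and -0.85 in the parental strain and -0.999 and -1.15 in the mutant, in the order of the slide rows. The arrays of each comparison lay close together, and both mutant arrays were slightly below the parental ones. The fitted values were -0.86 ± 0.12 (n = 2 arrays, limma adjusted p = 0.000473) and -1.07 ± 0.12 (n = 2 arrays, limma adjusted p = 0.000291). ADH1 was called lower in both strains whichever of the 8 arrays was left out. Its 2 spots differed by a median of 0.16 per array, against 0.06 for all tested genes, and with median centring the parental ratio was -1.51.

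ADH2 encodes the glucose-repressed dehydrogenase that oxidises ethanol. Its processed signal, the background-subtracted brightness given by the scanner software, ranged from 42.8 to 81.5 scanner units in the 4 parental glucose channels and from 30.8 to 97.4 in the 4 mutant glucose channels. On glycerol the same probe gave 6249 to 11990 units in the parental strain and 3353 to 10560 in the mutant. Both spots cleared background in 3 of 4 parental glucose channels, in 0 of 4 mutant glucose channels and in all 8 glycerol channels. No glucose channel came near a glycerol channel in either strain.

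The glycerol over glucose ratio of ADH2 was 5.45 in row 1 and 5.59 in row 2 for the parental strain, and 4.62 and 4.04 for the mutant, whose glucose channel was dim. The parental arrays were nearly equal and lay above both mutant arrays. The parental mean was 5.52 ± 0.26 (n = 2 arrays, limma adjusted p = 1.63e-06), the 21st highest of 5343 genes. ADH2 entered the tested set through its glycerol RNAs alone, so this test and rank describe a gene already selected as bright on glycerol. Because the mutant glucose channel was not well above background on either array, the mutant response is given only as a lower bound, at least 20.1-fold (n = 2 arrays, limma adjusted p = 1.1e-05). The background correction compressed these ratios: in the scanner software's own processed values, which carry no offset, they were 7.41 in the parental strain and 6.60 in the mutant, the latter again resting on the dim glucose channel.

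**Figure D2:**
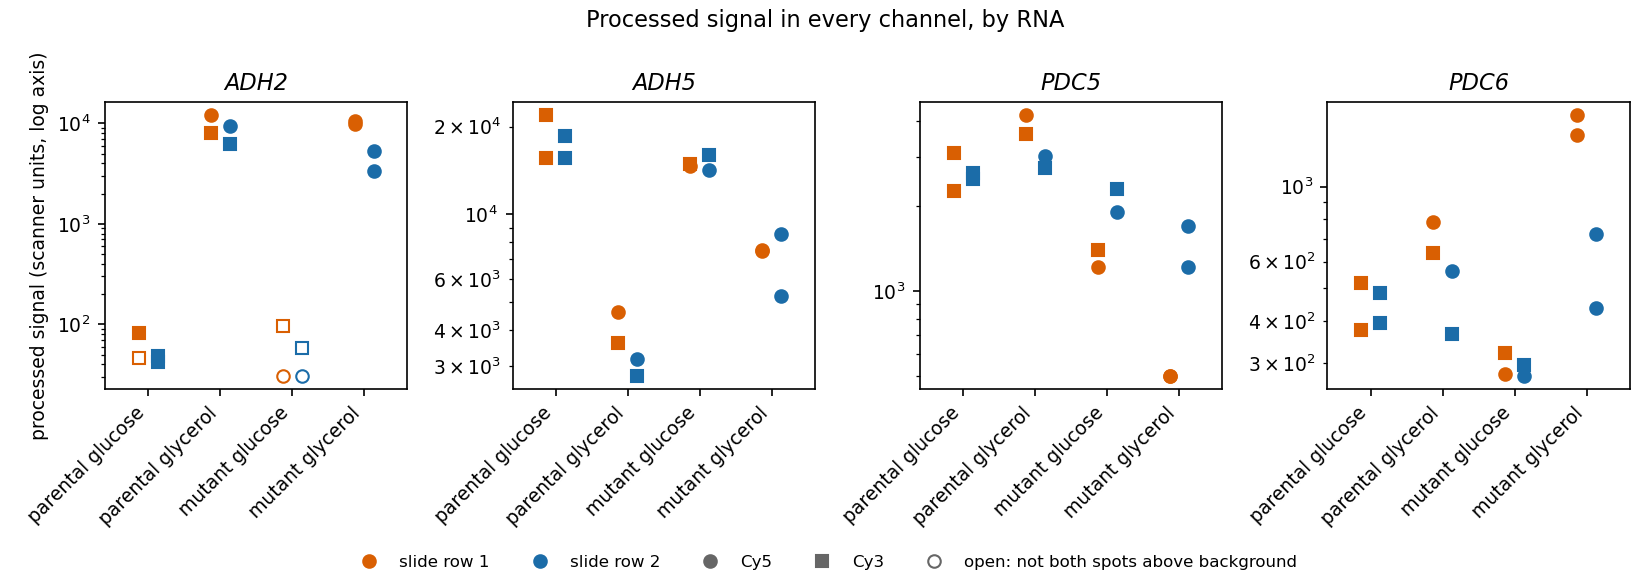
Processed signal (scanner units, log axis) of ADH2, ADH5, PDC5 and PDC6 in each of the 16 channels, grouped by the RNA in the channel. Colour marks the slide row, circles are Cy5 and squares Cy3, and open symbols are channels where not both spots were well above background. ADH2 signal on glucose stays under 100 units, and PDC5 signal is lowest in the 2 mutant glycerol channels of row 1, which coincide at about 501 units.

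ADH3 encodes the mitochondrial isoenzyme. The parental ratios of ADH3 were 1.23 in row 1 and 0.54 in row 2, and the mutant ratios were 1.34 and 1.10. All arrays were above 0 and the ranges of the strains overlapped. ADH3 rose by 0.88 ± 0.17 in the parental strain (n = 2 arrays, limma adjusted p = 0.00241) and by 1.22 ± 0.17 in the mutant (n = 2 arrays, limma adjusted p = 0.000805). The parental call ended without the row 1 array (0.54, adjusted p = 0.0505) and with median centring (0.31, adjusted p = 0.267). Centring on the spike-in RNA lowered the parental arrays by 1.126 in row 1 and 0.617 in row 2, close to the size of their ADH3 ratios. The mutant call held without any 1 of the 8 arrays.

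SFA1 encodes a dehydrogenase that oxidises the glutathione adduct of formaldehyde and also takes part in forming fusel alcohols. Its ratios were 0.46 and 0.38 in the parental strain and 0.69 and 0.59 in the mutant. The arrays of a comparison differed little, and both mutant arrays lay above the parental ones. SFA1 rose by 0.42 ± 0.10 (n = 2 arrays, limma adjusted p = 0.00557) and 0.64 ± 0.10 (n = 2 arrays, limma adjusted p = 0.00107), the smallest changes called among the 8 genes in either response. The parental call was lost without the row 1 array (adjusted p = 0.0561) and with median centring (0.05, adjusted p = 0.813), and centring on the spike-in RNA turned it to -0.45 (adjusted p = 0.129).

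ADH4, a zinc-regulated dehydrogenase of another protein family, had both spots well above background in none of the 16 channels. In the mutant glucose channel of mutant over parental in glucose, row 2, 1 of its 2 spots was well above background. Its processed signal ranged from 11.1 to 26.1 scanner units over the 4 RNAs. No ratio is given, and the data show no more than that its signal was near or below the detection limit of the array in all 4 RNAs.

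ADH5 encodes a less studied isoenzyme of ethanol formation. Its processed signal was 15580 to 21890 units in parental glucose RNA and 14170 to 16000 in mutant glucose RNA. On glycerol it was 2779 to 4619 units in the parental strain and 5239 to 8571 in the mutant. The glucose ranges of the strains overlapped, the glycerol ranges did not, and every glycerol channel was below every glucose channel.

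The glycerol over glucose ratios of ADH5 were -2.13 and -2.32 in the parental strain and -0.90 and -0.79 in the mutant. The arrays of each strain lay close together and the strains were far apart. The gene fell by 2.22 ± 0.10 in the parental strain (n = 2 arrays, limma adjusted p = 1.5e-06), the 40th lowest of 5343 genes and a 4.67-fold difference. In the mutant it fell by 0.85 ± 0.10 (n = 2 arrays, limma adjusted p = 0.000363), a 1.80-fold difference. Both calls held without any 1 of the 8 arrays. Centring on the spike-in RNA ended the mutant call (-0.65, adjusted p = 0.0675).

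Ordered by their glycerol response in the parental strain, the 8 genes ran from ADH2 over ADH3, SFA1, PDC6, PDC5, PDC1 and ADH1 to ADH5. The arrays of SFA1, PDC6 and PDC5 overlapped, so their order was not resolved, and the other neighbours in this list did not overlap. In the mutant the order was ADH2, ADH3, PDC6, SFA1, PDC1, PDC5, ADH5 and ADH1. There the arrays of ADH3 and PDC6 overlapped, as did those of PDC1 and PDC5 and those of PDC5 and ADH5.

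Between the strains in glucose, none of the 8 genes was called by limma, against 7.04% of all genes (3.50% higher and 3.54% lower), and 0 of the 8 had an unadjusted p under 0.05. The log2 ratios of mutant over parental ran from -0.54 ± 0.32 for PDC5 (n = 2 arrays, limma adjusted p = 0.309) to 0.20 ± 0.10 for SFA1 (n = 2 arrays, limma adjusted p = 0.22). All 3 decarboxylase genes were below 0 on both arrays, with -0.18 and -0.34 for PDC1, -0.75 and -0.33 for PDC5, and -0.22 and -0.61 for PDC6. ADH1, ADH3 and SFA1 were above 0 on both arrays. These values leave room for differences of some size: the 95% interval of PDC5 ran from -1.27 to 0.19 and that of ADH5 from -0.37 to 0.10. For ADH2 the mutant channel had only 1 of 2 spots well above background on each array. The parental channel had both spots so on 1 of the 2 arrays. The ADH2 ratio is therefore drawn in the figures but not read.

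Between the strains in glycerol, 2 of the 8 genes were called. ADH5 was higher in the mutant and PDC5 was lower, against 3.24% of all genes called higher, 0.880% called lower and 4.12% in all. The median of the 8 genes was 0.21, where that of all tested genes was 0.01. Before adjustment, 5 of the 8 genes had a p under 0.05.

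The mutant over parental ratio of ADH5 in glycerol was 0.98 in row 1 and 0.91 in row 2. Both arrays were near a 2-fold difference. The mean of 0.95 ± 0.10 (n = 2 arrays, limma adjusted p = 0.003) was a 1.93-fold difference and the 85th highest of 5343 genes. Without the row 1 array the value was 0.91 and the adjusted p 0.0782.

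For PDC5 the same ratio was -2.50 in row 1 and -1.01 in row 2. Both arrays were below 0, but they differed by more than a log2 ratio of 1, where the median gap between the arrays over all tested genes was 0.21. The mean of -1.76 ± 0.32 (SD 1.06, n = 2 arrays, limma adjusted p = 0.0229) was the lowest of all 5343 genes, a 3.38-fold difference. The call rested on the row 1 array: without it the value was -1.01 with an adjusted p of 0.208. It was kept in 5 of the 8 fits that each left out 1 array. In processed signal, mutant glycerol RNA gave 501 units in both of its row 1 channels and 1215 and 1703 in row 2. Parental glycerol RNA gave 2729 to 4205 units in its 4 channels, so that all 4 mutant glycerol channels were below all 4 parental ones. The mutant glycerol response and this comparison both hold mutant glycerol RNA, and over all tested genes their deviations between slide rows correlated at r = 0.763. Whether 1 RNA extract served both arrays of a slide row was not tested.

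PDC6 and PDC1 leaned the other way from PDC5 in glycerol. PDC6 stood at 0.97 and 0.19 in rows 1 and 2, and PDC1 at 0.53 and 0.14. Their means of 0.58 ± 0.24 (n = 2 arrays, limma adjusted p = 0.227) and 0.33 ± 0.14 (n = 2 arrays, limma adjusted p = 0.224) did not pass the test. SFA1 was 0.33 and 0.26 on its arrays, with a mean of 0.29 ± 0.10 (n = 2 arrays, limma adjusted p = 0.145). ADH1, ADH2 and ADH3 each had 1 array above 0 and 1 below it. ADH2 was the most uneven of these, at 0.41 in row 1 and -0.82 in row 2. Centring on the spike-in RNA takes its reference level from all 8 arrays together and is not calibrated. It moved the median of all genes in this comparison from 0.01 to 0.82 and turned ADH2 to 0.61. The 8 ratios are thus relative to the bulk of the transcripts.

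The question whether the mutant answered the carbon source differently was tested on 2 contrasts that estimate the same quantity from different arrays. In both, any dye effect that a probe keeps from array to array drops out. The first was the mutant glycerol response minus the parental one. In it 1 of the 8 genes, ADH5, was called higher and none was called lower, against 0.861% and 1.01% of all genes and 1.87% in either direction. Before adjustment, 4 of the 8 had a p under 0.05. In the second, the mutant over parental ratio in glycerol minus that in glucose, limma called 0 of the 8, against 0.0187% of all genes, while 4 of the 8 had an unadjusted p under 0.05.

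For ADH5 the response of the mutant exceeded that of the parental strain by 1.38 ± 0.14 (4 arrays, limma adjusted p = 0.0178), the 19th highest of 5343 genes. All 4 arrays showed this order. The second contrast gave 1.08 ± 0.14 (4 arrays, limma adjusted p = 0.0558), just outside the threshold. The size of the first difference varied little, from 1.28 to 1.47 when single arrays were left out, but the call was kept in 3 of those 8 fits, with adjusted p-values up to 0.15. With median centring the difference was 1.83 (limma adjusted p = 0.0166), where the median of all genes was 0.29 and 240 of 258 called genes were higher, and with spike-in centring it was 2.44, where that median was 1.07. The call was lost without either parental array, without the row 1 mutant array and without either array of mutant over parental in glucose.

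The decarboxylase genes had differences of some size that did not pass the test. PDC5 differed by -1.03 ± 0.45 in the first contrast (4 arrays, limma adjusted p = 0.235) and by -1.21 ± 0.45 in the second (4 arrays, limma adjusted p = 0.217). PDC6 differed by 0.81 ± 0.34 (4 arrays, limma adjusted p = 0.219) and 0.99 ± 0.34 (4 arrays, limma adjusted p = 0.194). PDC1 had smaller values, 0.32 ± 0.19 (4 arrays, limma adjusted p = 0.382) and 0.59 ± 0.19 (4 arrays, limma adjusted p = 0.184). The 2 contrasts had the same sign for each of the 3 genes. Both rest on the same 4 RNA conditions, so the shared sign is not independent support.

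ADH2 differed by -1.19 ± 0.36 in the first contrast (4 arrays, limma adjusted p = 0.116) and by -0.06 ± 0.36 in the second (4 arrays, limma adjusted p = 0.949). The gap between these 2 estimates, 1.13, was large beside the SD of 0.23 of the same gap over all tested genes. Both rest on mutant glucose channels, in none of which both spots cleared background. No difference between the strains is therefore read from these 2 estimates. ADH1, ADH3 and SFA1 had differences between -0.21 and 0.33 in both contrasts, with limma adjusted p-values of 0.386 or higher.

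**Figure D3:**
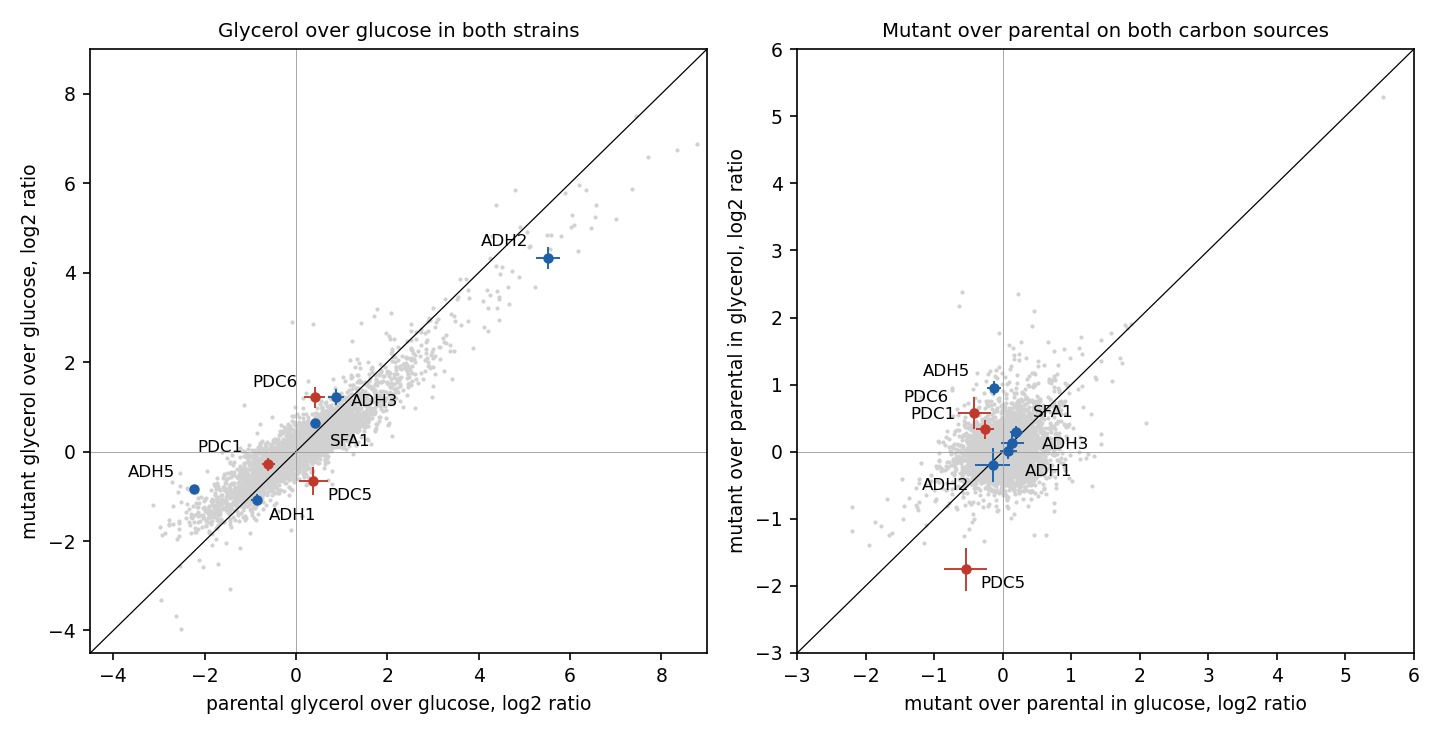
Left, log2 glycerol over glucose ratio in the mutant against that in the parental strain. Right, log2 mutant over parental ratio in glycerol against that in glucose. Grey points are all 5343 tested genes, red points are the PDC genes and blue points the ADH genes and SFA1, with bars of ± SE, and the diagonal marks equal ratios. ADH5 lies above the diagonal in both panels, by 1.38 and 1.08, and PDC5 lies below it. The glucose ratio of ADH2 in the right panel rests on dim channels and is not read.

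The genes around this step of metabolism were described with lists of neighbouring functions. Their counts stand beside the shares over all tested genes, 31.4% higher and 30.5% lower on glycerol in the parental strain and 24.7% and 21.9% in the mutant. Of the 7 genes that carry acetaldehyde on to acetate and acetyl-CoA, 5 were higher and 2 lower on glycerol in the parental strain, and 6 were higher and 1 lower in the mutant. Thus all 7 were called in each strain, against 62.0% and 46.6% of all genes, and their median ratios were 3.36 and 2.38. ALD4, the mitochondrial acetaldehyde dehydrogenase gene, rose by 4.87 ± 0.18 and 3.92 ± 0.18 in the parental strain and the mutant (limma adjusted p = 6.06e-07 and 2.57e-06). ACS1, for the acetyl-CoA synthetase repressed by glucose, rose by 4.45 ± 0.15 and 2.94 ± 0.15 (limma adjusted p = 4.18e-07 and 4.57e-06). Of this list, the difference of the responses was called for ACS1 alone, at -1.51 ± 0.21 (limma adjusted p = 0.0254). In the second contrast, the strain ratio in glycerol minus that in glucose, ACS1 stood at -0.45 ± 0.21. That value was not called (limma adjusted p = 0.303). ALD5, another mitochondrial isoenzyme gene, fell by 1.65 and 1.19 (limma adjusted p = 0.000181 and 0.00173). ALD6, for the cytosolic isoenzyme that makes acetate during fermentation, was higher in the mutant in glucose by 0.82 ± 0.17 (limma adjusted p = 0.0283).

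Of 9 genes for other reductases and decarboxylases, 6 were higher and 3 lower in each strain, so that all 9 were called, against 62.0% of all genes in the parental strain and 46.6% in the mutant. Their medians were 1.58 and 1.10. BDH2, next to the butanediol dehydrogenase gene BDH1 and similar to it, was highest at 3.80 ± 0.31 and 3.44 ± 0.31 (limma adjusted p = 2.49e-05 and 8.77e-05). ADH6, for an NADPH-dependent reductase of branched and aromatic aldehydes, fell by 0.62 and 0.67 (limma adjusted p = 0.00191 and 0.00218). ARO10, for the decarboxylase of phenylpyruvate, fell by 0.80 and 0.48 (limma adjusted p = 0.00108 and 0.0183). GRE2, a methylglyoxal reductase gene named after its values were seen, differed in its response between the strains by -1.02 ± 0.15 (limma adjusted p = 0.0271). The second contrast gave -0.61 ± 0.15 for GRE2, which was not called (limma adjusted p = 0.118). Between the strains in glucose, where 3.50% of all genes were called higher and 3.54% lower, GRE2 (0.52, limma adjusted p = 0.0295) and GRE3 (0.58, limma adjusted p = 0.0341) were higher in the mutant. ARO10 was lower there (-0.82, limma adjusted p = 0.0134).

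At pyruvate itself, 5 of 12 genes were higher and 3 lower in the parental strain, and 7 were higher and 2 lower in the mutant, with medians of 0.40 and 0.52. In the parental strain the 8 calls among 12 genes were near the 62.0% of all genes, and in the mutant the 9 calls stood against 46.6%. MPC3, a subunit of the mitochondrial pyruvate carrier found in respiring cells, rose by 6.47 ± 0.39 and 5.01 ± 0.39 (limma adjusted p = 5.77e-06 and 4.5e-05). CDC19, for the main pyruvate kinase, fell by 0.93 and 0.67 (limma adjusted p = 0.00236 and 0.0159). Of the pyruvate carboxylase genes, PYC1 rose by 2.52 and 2.70 (limma adjusted p = 1.27e-06 and 1.31e-06) and PYC2 fell by 1.22 and 0.39 (limma adjusted p = 5.31e-05 and 0.0245). The response of PYC2 differed between the strains by 0.83 ± 0.16 (limma adjusted p = 0.0476). The second contrast gave 1.01 ± 0.16 for PYC2, which was not called (limma adjusted p = 0.0611).

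Of 14 genes for known regulators of the PDC and ADH genes, 13 were tested. In the parental strain 7 were higher and 2 lower on glycerol, and in the mutant 5 were higher and 1 lower, with medians of 0.38 and 0.25. These 9 and 6 calls among 13 genes were near the shares of all genes, 62.0% and 46.6%, so the counts say little about the regulators as a group. ADR1, the activator of ADH2, rose by 4.45 ± 0.20 and 3.41 ± 0.20 (limma adjusted p = 1.5e-06 and 1.1e-05). CAT8, a regulator that also acts on ADH2, rose by 4.41 ± 0.20 and 3.59 ± 0.20 (limma adjusted p = 1.46e-06 and 6.61e-06). THI3, a thiamine sensor that works with the decarboxylase activator Pdc2, fell by 1.10 and 0.61 (limma adjusted p = 0.000187 and 0.00615). PDC2 itself stood at -0.09 and -0.06 and was not called (limma adjusted p = 0.645 and 0.786). For none of the 13 did the difference between the strains pass the test in limma in glycerol or in the contrast of the responses, against 4.12% and 1.87% of all genes, while 2 and 5 of them had an unadjusted p under 0.05. In glucose, where 7.04% of all genes were called, NRG1, a glucose repressor gene, was higher in the mutant by 0.75 ± 0.17 (limma adjusted p = 0.0403).

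Thiamine diphosphate is the cofactor of the decarboxylases, and PDC5 is known to follow thiamine supply. Of 19 thiamine genes 15 were tested, some of them members of near-identical families whose probes may share signal. In the parental strain 1 was higher and 7 were lower on glycerol, and in the mutant 3 were higher and 5 lower, with medians of -0.11 and 0.05. The 8 calls among 15 genes in each strain were near the 62.0% and 46.6% of all genes. THI6, for a thiamine phosphate synthase, was lowest in the parental strain and fell by 0.88 and 0.60 (limma adjusted p = 0.000188 and 0.00221). THI7, the thiamine transporter gene, fell by 0.72 and 0.86 (limma adjusted p = 0.0423 and 0.0284) and was lowest in the mutant. THI20 was highest in the parental strain and SNZ2 in the mutant, both under 0.5. Between the strains in glycerol, where PDC5 was lowest of all genes, none of the 15 was called in limma, against 4.12% of all genes. Of the 15, 6 had an unadjusted p under 0.05, all of them higher in the mutant, from 0.25 for THI6 to 0.49 for PHO3. The median of the 15 was 0.19.

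Zinc is bound by the ADH1-type dehydrogenases and controls ADH4. Of 8 zinc homeostasis genes, 0 were higher and 5 lower in the parental strain, and 0 were higher and 4 lower in the mutant, with medians of -0.43 and -0.41. Over all genes 30.5% and 21.9% were lower. ZRT2, the low-affinity zinc transporter gene, fell most, by 1.16 and 0.71 (limma adjusted p = 0.000249 and 0.00494). Next to SFA1 in formaldehyde oxidation, YJL068C, which encodes the esterase of the following step, rose by 1.69 ± 0.13 and 1.45 ± 0.13 (limma adjusted p = 1.89e-05 and 8.85e-05).

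The genes with ratios most like each of the 8 over the 8 arrays were found by the root mean square difference of log2 ratios. SFA1 had the closest, CIR2 at 0.09, then SBE22 and DPC25. PDC1 was nearest to IOC2 at 0.10, then to ELO2 and TAF8, and ADH1 to NTG1 at 0.13, then to PRM7 and TSR3. ADH3 was nearest to ARF2 at 0.15, then to WTM1 and VID30. PDC6 lay 0.27 from PAU19, then came PAU21 and PAU22, members of 1 seripauperin family whose near-identical copies may share signal. ADH5 lay 0.29 from BNA3, then came SER33 and RPL2A. The nearest gene to ADH2 was CIT3, a citrate synthase gene, at 0.33, followed by BOP2 and YGR067C. For PDC5 even the nearest gene, COX5B, the hypoxic isoform of a cytochrome c oxidase subunit, lay at 0.52, followed by SMT3 and PTR2. These distances describe likeness over 8 arrays that share RNA conditions, and they grow with the size and scatter of a gene's own ratios.

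Among the members themselves the closest pair was ADH3 and SFA1, at 0.42, and the farthest was ADH2 and ADH5, at 4.70. The probes of close paralogs, such as ADH1 and ADH2 or PDC1 and PDC5, may share signal. How much they share was not analysed here. ADH2 signal on glucose was near background in channels where ADH1 was bright, between 40790 and 122400 units.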

How the data were processed

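RNA from 4 conditions was hybridised in pairs on 8 two-colour arrays, 2 per comparison, grouped by the labels. The labels name Cy5 and Cy3 for each sample, and 100 ng of RNA was labelled with spike-in RNA. The deposited scanner files hold the median intensity of each spot and its background, and processed intensity values after background subtraction and dye scaling, both from version 10.10.1.1 of Agilent Feature Extraction, as the file headers state. They hold the log10 ratio of Cy5 over Cy3 and flags of other kinds, per the file headers. The authors deposited a table of 1 combined value per gene and comparison, assumed to be log2, with limma named in the submitters' processing notes. Those notes give no limma version. The log base and the centring of the table are not stated. Its slopes on the log2 scanner ratios, 0.681 to 0.80 in size, were all under 1 and do not settle the base. In that table the parental column has the opposite sign. Per-column medians there were 0.06 (parental response), -0.05 (mutant response), -0.03 (strains in glucose) and -0.02 (strains in glycerol).

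In R 4.3.3 with limma 3.58.1, median signals were corrected by normexp with an offset of 50, so that ratios of dim probes are compressed. Loess normalization was then run per array, with weight 0 for control and outlier spots. For spike-in centring, each array was then shifted by its mean ratio over 10 spike-in probes minus the mean of that ratio over the 8 arrays. These array means ran from 0.551 to 2.585. The designed spike-in ratios are not known here, so the reference level is set by the 8 arrays together and is not a calibrated measure of RNA amount. Both spots of a gene were averaged. The 9 genes were matched by systematic name. A gene was tested if both spots cleared background in all 4 channels of 1 or more of the 4 RNAs. This kept 5343 of 6256 genes, and 4718 passed in all 16 channels. The fit had 1 coefficient per comparison over 8 arrays with 4 residual degrees of freedom, eBayes moderation and Benjamini-Hochberg adjustment over all tested genes. The design text calls the 2 arrays biological duplicates. The p-values rest on a spread between duplicates that is pooled over the 4 comparisons and moderated over genes, not on the 2 arrays of 1 comparison alone. The fit treats the 8 arrays as independent. Deviations between slide rows correlated at -0.449 to 0.763 between comparisons that share an RNA condition, and at -0.0618 and -0.286 between those that do not. The effect of this on the p-values was not tested. Where 1 array of a comparison was left out, the other was assumed to vary like the rest. The fit was tested on simulated data. All 9 genes are named. Of a list, the rule names the highest and lowest gene and those sharing a reaction or a known regulator with one of the 9, and each tested gene has its 3 most alike genes named. The 9 genes and the lists were chosen with earlier results of these data known. The array files name no reference assembly matching the gene table used here, so no coordinates are given, and no sequence was used here.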

Additional observations from a re-analysis of the deposited data

Results flagged for a closer look

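ADH5 is listed because its glycerol responses differed between the strains by a test of the difference, 1.38 on the log2 scale (mutant minus parental, limma adjusted p = 0.0178). In the other contrast, mutant over parental in glycerol minus that in glucose, ADH5 differed by 1.08 (limma adjusted p = 0.0558), with both glucose arrays below 0 and both glycerol arrays above it. The remaining genes are listed because the arrays of the 2 groups lay on opposite sides of 0, while the difference itself did not pass the test. PDC5 was above 0 on both parental and below 0 on both mutant arrays of the glycerol response, a difference of -1.03 (limma adjusted p = 0.235). Mutant over parental ratios of PDC1 and PDC6 were below 0 on both glucose and above 0 on both glycerol arrays, differences of 0.59 (limma adjusted p = 0.184) and 0.99 (limma adjusted p = 0.194).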

How the results depend on the processing

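Over all genes tested, 3310 were called in the parental response, 2491 in that of the mutant, 376 between strains in glucose, 220 between strains in glycerol, 100 in the difference of responses and 1 in the difference of strain ratios. Centring on the spike-in RNA gave 1397 calls in the mutant response, 87 between strains in glucose, 4657 in glycerol, 4077 in the difference of responses and 3512 in that of strain ratios. Spike-in centring has no calibrated reference level, since the designed ratios are not known here. It moved the median of all genes to -0.88 in the parental and 0.21 in the mutant response, 1.07 in the difference of responses and 0.98 in that of strain ratios. Higher calls went from 49.7% to 34.5% of all calls between strains in glucose, from 173 of 220 to 4655 of 4657 in glycerol and from 46 of 100 to 4076 of 4077 in the difference of responses. Relative to such shifts it reversed SFA1 in the parental response (-0.45), ADH2 between strains in glycerol (0.61), ADH1 in the difference of responses (0.85), and ADH1 (0.88), ADH2 (0.90) and ADH3 (0.94) in that of strain ratios. Median centring gave 111 and 120 calls between strains in glucose and glycerol and 258 in the difference of responses, 93.0% of them higher. The loop model gave 968, 732 and 1030 in these 3. Agilent's processed ratios gave 20 in the difference of responses and 2 in that of strain ratios, where an offset of 10 gave 24, the first spot 21 and the second 10. Leaving out single arrays gave 2246 to 3281 calls in the parental response, 1453 to 2497 in that of the mutant, 5 to 368 between strains in glucose, 18 to 281 in glycerol, 0 to 223 in the difference of responses and 0 to 20 in that of strain ratios. Where limma called 0, at least 487 genes had an unadjusted p under 0.05. The labels give no replicate numbers that pair arrays. With the slide row as replicate block, 43 genes were called in the difference of responses and 2 in that of strain ratios, and 47 of 48 values of the 8 genes kept direction and call, PDC6 in the parental response being the exception. Direction and call also held in 48 of 48 values with Agilent's ratios and with no filter, 45 with median centring and 27 with spike-in centring, counting 22 sign changes among uncalled values as held. The loop model also called PDC5 in the mutant response, SFA1 between strains in glycerol and the differences of responses of PDC1, PDC5 and PDC6. The cause of these changes was not tested. Dim glucose channels limit ADH2 and all channels limit ADH4.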

Other observations

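In the authors' deposited table, with the sign of the parental column turned, the 4 values of each of the 6256 genes closed around the loop of comparisons to within 3.9e-08, so that its difference of responses and its difference of strain ratios are 1 number. In the scanner ratios the same loop left a mean gap with an SD of 0.23 over the tested genes, from -0.35 for ADH3 to 1.13 for ADH2 among the 8 genes. In the authors' deposited table, ADH5 differed between the strains' responses by 1.21, PDC6 by 0.91, PDC5 by -1.09 and ADH2 by -0.51. The log base of these values is not stated, so their sizes are not set beside the log2 ratios here.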
